A study of Mus musculus with 6 samples.

Results

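Albumin and other plasma proteins are made by hepatocytes, the main cells of the liver, and 35 genes of that cell type were followed here in libraries of Kupffer cells, the macrophages that live in the liver sinusoids. The members were taken by gene symbol, and all 35 were found among the 15458 rows of the count table. They were divided by role into 16 plasma protein genes, 10 periportal genes, 6 pericentral genes and 3 genes given no zone (Tat, Hpd and Aadac). The Kupffer cells had been sorted by flow cytometry from livers of wild-type C57BL/6 mice that bore tumours of Hepa1-6, a mouse hepatoma line, on day 18 after implantation. In the KC_Epo group the implanted tumour cells overexpressed erythropoietin (Epo), the hormone that drives red cell formation, and in the KC_EV group they carried an empty vector. Each group had 3 libraries. Both groups shared the strain, the genotype and the tumour line, so no library came from a tumour-free liver. The labels give the mice numbers without stating that the libraries of a group are separate animals, so p-values here measure only the spread among libraries, which may be technical. The comparison asks how transcripts in sorted Kupffer cells differ when the tumour makes erythropoietin.

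Hepatocytes secrete most of the proteins of blood plasma, and their transcripts for albumin, apolipoproteins, protease inhibitors and fibrinogen are among the most abundant in the liver. Hepatocytes also differ along the path of blood through the lobule. Those around the portal vein carry more of the urea cycle, gluconeogenesis and amino acid breakdown, while those around the central vein hold glutamine synthetase and more of the drug-metabolising enzymes. Plasma protein genes are expressed along the whole lobule and mark hepatocyte RNA as such, whereas zonation genes depend on position and on the metabolic state of the cell. A few of the zonation genes, among them Glul, Ass1, Asl, Oat and Slc1a2, are known to be expressed in other cell types as well.

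HNF1 and C/EBP are transcription factor families of hepatocytes that bind promoters of plasma protein genes. RefSeq promoters on GRCm38.p6, a build other than that named for the counts, were matched by symbol for 27 of the 35 members, and the 200 bases before each transcription start were searched on both strands. The HNF1 core motif GTTAAT lay in 7 of these 27 promoters (25.9%), against 5.89% of all 27025 genes with a promoter and 3.86% of the 10245 tested genes with one. It lay in 5 of 13 plasma protein, 1 of 7 periportal and 1 of 4 pericentral promoters. The C/EBP motif TTGCNNAA lay in 9 of 27 members (33.3%), 7 of them plasma protein genes, against 8.55% of all genes. TATAAA lay in 2 of 27 members and 11.7% of all genes, and the HNF4 motif CAAAGTNCA in 0 of 27 members and 1.13% of all genes. A match describes only these letters in this window. The following promoters with the HNF1 core motif were chosen, after their values were seen, because the genes differed in how they moved beside albumin. Capitals mark the HNF1 core motif and, in Alb and Serpina1b, the C/EBP motif.
Alb promoter, chr5:90460670-90460869, plus strand: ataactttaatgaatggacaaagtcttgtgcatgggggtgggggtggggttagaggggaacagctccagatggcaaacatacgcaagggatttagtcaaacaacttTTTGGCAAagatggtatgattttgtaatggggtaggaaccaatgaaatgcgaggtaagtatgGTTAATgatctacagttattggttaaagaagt
Serpina1b promoter, chr12:103738190-103738389, minus strand: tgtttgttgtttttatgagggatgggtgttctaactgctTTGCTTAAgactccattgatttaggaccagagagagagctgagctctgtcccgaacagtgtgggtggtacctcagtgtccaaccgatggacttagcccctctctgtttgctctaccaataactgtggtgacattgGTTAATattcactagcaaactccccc
Lect2 promoter, chr13:56548539-56548738, minus strand: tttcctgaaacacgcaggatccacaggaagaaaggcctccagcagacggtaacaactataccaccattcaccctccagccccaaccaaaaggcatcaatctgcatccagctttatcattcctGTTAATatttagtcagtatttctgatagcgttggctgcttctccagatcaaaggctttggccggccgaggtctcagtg
Pck1 promoter, chr2:173152873-173153072, plus strand: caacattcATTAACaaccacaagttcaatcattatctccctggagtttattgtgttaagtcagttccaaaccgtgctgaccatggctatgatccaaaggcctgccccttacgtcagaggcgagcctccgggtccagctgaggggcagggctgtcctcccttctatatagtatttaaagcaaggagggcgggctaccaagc
The HNF1 motif began 32 bases before the start in Alb, 26 in Serpina1b, 78 in Lect2 and 192 in Pck1, where it lies on the opposite strand. Relative to albumin, Pck1 was lower in KC_Epo, Lect2 was higher, and Serpina1b did not pass the test. Over all genes tested 91.3% were lower relative to albumin and 0.274% higher.

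Total counts were 23201076 to 33280754 in KC_Epo libraries and 29327625 to 32199405 in KC_EV libraries. Levels are CPM, counts scaled to a common library size, after TMM scaling, whose factors were 0.934 to 0.959 in KC_Epo and 1.05 to 1.067 in KC_EV. Kupffer cell markers fit the label: 8 listed markers summed to 38254 to 40649 CPM in KC_Epo and 23878 to 26139 CPM in KC_EV. Alb alone took 1.41, 0.373 and 0.812% of all counts in KC_Epo 1, 2 and 3, against 0.184, 0.227 and 0.205% in KC_EV 1, 2 and 3. The 16 plasma protein genes together took 2.39, 0.68 and 1.42% in KC_Epo, against 0.348, 0.439 and 0.398% in KC_EV. In these bulk libraries more hepatocyte cells or fragments and more hepatocyte RNA per cell cannot be told apart. The sorting gate is not given in the sources used here.

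Of the 35 members, 18 were higher in KC_Epo, 0 were lower and 17 did not pass the edgeR quasi-likelihood test at a Benjamini-Hochberg adjusted p of 0.05 over 13120 genes. Among all genes tested 16.9% were called higher and 15.4% lower, 32.3% in all. The calls were unevenly placed: 13 of 16 plasma protein genes, 2 of 10 periportal genes, 3 of 6 pericentral genes and 0 of the 3 genes without a zone. The median log2 fold change was 2.07 over the plasma protein genes, 0.02 over the periportal genes and 0.65 over the pericentral genes, with -0.0045 over all genes tested. In CPM, every KC_Epo library lay above every KC_EV library for 22 members, 15 of them plasma protein genes, where 24.1% of all genes did so and 48.3% lay apart in either direction. The plasma protein calls rest on few libraries. Without KC_Epo 3, KC_EV 2 or KC_EV 3, 0 of the 16 were called, without KC_EV 1 only Apoc3, and without KC_Epo 1 only Apoa2, Apoc3, Fga and Ambp, whereas without KC_Epo 2 all 16 were called higher.

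Alb, the main carrier protein of plasma, had 14660.0, 3995 and 8586 CPM in KC_Epo 1, 2 and 3, against 1752, 2128 and 1949.6 CPM in KC_EV 1, 2 and 3. All KC_Epo libraries lay above all KC_EV libraries, yet KC_Epo 1 held 3.67 times the level of KC_Epo 2. The log2 fold change was 2.22 ± 0.54 (SE, edgeR adjusted p = 0.0409, n = 3 each). With one library left out it was 1.70 to 2.59, and the adjusted p was 0.0555 without KC_Epo 1, 0.107 without KC_Epo 3 and 0.102 to 0.125 without a KC_EV library. Per kilobase of transcript Alb was also the highest member in both groups, at a mean of 4464 RPKM in KC_Epo and 955 RPKM in KC_EV. Apoa1 followed at 699 RPKM in KC_Epo and 200.1 RPKM in KC_EV.

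The apolipoproteins package lipids for transport in blood. Apoa1, the main protein of high-density lipoprotein, had 1097, 375 and 698 CPM in KC_Epo and 171, 241 and 210.1 CPM in KC_EV, and rose by 1.80 ± 0.46 on the log2 scale (SE, edgeR adjusted p = 0.047). Apoc3, an inhibitor of lipoprotein lipase, had 49.7, 24.8 and 38.1 CPM in KC_Epo against 10.8, 14.8 and 16.2 CPM in KC_EV. Its rise of 1.43 ± 0.30 on the log2 scale (SE, edgeR adjusted p = 0.0198) was smaller than that of Alb, with a smaller spread between KC_Epo libraries. Apoa2 of high-density lipoprotein (1.94), Apob of very-low-density lipoprotein (2.10) and Apoh, the phospholipid-binding beta-2-glycoprotein I (2.20), also rose on the log2 scale, with no overlap between groups.

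The transport, clotting and inhibitor proteins gave log2 fold changes of 1.90 to 2.21 in 7 genes, near that of Alb. Fga, the alpha chain of fibrinogen, had 1121, 349 and 700.0 CPM in KC_Epo and 133, 175 and 162 CPM in KC_EV (log2 fold change 2.20 ± 0.49 SE, edgeR adjusted p = 0.0335). The beta and gamma chains, Fgb and Fgg, the other subunits of the same protein, rose by 2.05 and 2.12 on the log2 scale. Serpinc1, which encodes antithrombin, had 440, 128 and 273 CPM in KC_Epo against 56.4, 68.5 and 60.6 CPM in KC_EV (2.18 ± 0.51 SE, edgeR adjusted p = 0.0384). Ahsg, which encodes fetuin-A, had 1214, 348 and 702 CPM in KC_Epo against 136, 187 and 165 CPM in KC_EV (2.21 ± 0.53 SE, edgeR adjusted p = 0.0403). Ambp, the precursor of alpha-1-microglobulin and bikunin, and Ttr, the thyroid hormone and retinol carrier transthyretin, had log2 fold changes of 2.17 and 1.90, and both passed the test. These 7 genes kept the order KC_Epo 1, KC_Epo 3, KC_Epo 2 from high to low.

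**Figure D1:**
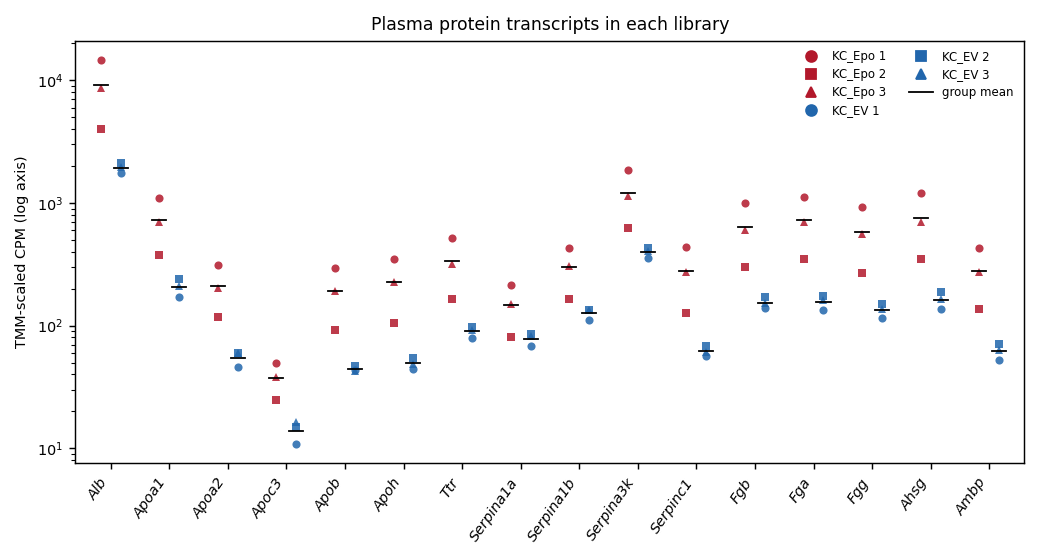
TMM-scaled CPM (log axis) of the 16 plasma protein genes in each of the 3 KC_Epo and 3 KC_EV libraries, one point per library. KC_Epo points lie above KC_EV points for every gene except Serpina1a, whose KC_Epo 2 value of 80.4 CPM falls among the KC_EV values.

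A trio of serpin A protease inhibitors had smaller fold changes than the transport, clotting and inhibitor genes above, and did not pass the test. Serpina1a, one of several mouse antitrypsin genes, had 214, 80.4 and 149 CPM in KC_Epo and 68.1, 84.8 and 81.6 CPM in KC_EV, and its groups overlapped (log2 fold change 0.92 ± 0.40 SE, edgeR adjusted p = 0.162). Serpina1b had 429, 166 and 309 CPM in KC_Epo and 111, 135 and 134 CPM in KC_EV (1.25 ± 0.39 SE, edgeR adjusted p = 0.078). Serpina3k had 1840.4, 626 and 1129 CPM in KC_Epo and 357, 430.0 and 403 CPM in KC_EV (1.59 ± 0.44 SE, edgeR adjusted p = 0.0587). Without KC_Epo 2 and with a non-robust fit all 3 were called higher, and with DESeq2 and limma-voom Serpina1b (adjusted p = 0.0041 and 0.0137) and Serpina3k (0.0013 and 0.0065) were. Serpina1 genes are near-identical copies: 60.0% of the 50-base windows of the Serpina1a transcript and 34.2% of those of Serpina1b occur in another Serpina1 transcript of GENCODE M21, so single values of this family are uncertain.

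Dividing each member by Alb of the same library removes the difference in total hepatocyte RNA as far as Alb follows it. Antithrombin and beta-2-glycoprotein I kept nearly the same ratio to Alb in all libraries. Serpinc1 had 30.0, 32.0 and 31.8 counts per 1000 Alb counts in KC_Epo, against 32.2, 32.2 and 31.1 in KC_EV. Apoh had 23.6, 26.4 and 26.3 in KC_Epo against 25.4, 25.4 and 25.0 in KC_EV. For these 2 genes the groups overlapped, although Alb reached 14660.0 CPM in KC_Epo 1 against 1752 CPM in KC_EV 1. In a fit of gene over Alb, 0 of the other 15 plasma protein genes passed the test, and their median difference was -0.15 on the log2 scale. That fit, made over all genes tested, gave standard errors of 0.60 to 0.63 for these genes, and the median of all genes against Alb was -1.85. The log2 ratios of these 15 genes had SDs of 0.039 to 0.44 in KC_Epo and 0.013 to 0.22 in KC_EV. The standard errors thus do not measure the spread of these genes, and not passing does not show an unchanged ratio. Lower ratios were found for the 3 serpin A genes and for Apoc3, whose groups overlapped (log2 fold change -0.61 ± 0.60 SE, edgeR adjusted p = 0.315). Serpina1a had 14.6, 20.1 and 17.4 counts per 1000 Alb counts in KC_Epo, against 38.8, 39.8 and 41.9 in KC_EV (log2 fold change -1.21 ± 0.61 SE, edgeR adjusted p = 0.0528). Serpina1b had 29.3, 41.6 and 35.9 in KC_Epo against 63.2, 63.4 and 68.6 in KC_EV (-0.87 ± 0.62 SE, edgeR adjusted p = 0.164). Serpina3k had 126, 157 and 132 in KC_Epo against 204, 202 and 207 in KC_EV. In these 3 serpins every KC_Epo library lay below every KC_EV library, as in Apoa1, Ttr and Fgb, while among all genes 93.7% did so. Serpina1a was called lower relative to Alb without KC_Epo 1 (-1.10, adjusted p = 0.0349) and without KC_Epo 2 (-1.33, adjusted p = 0.000443). Without KC_Epo 2, Serpina1b (-0.997, edgeR adjusted p = 0.0086) and Apoc3 (-0.87, edgeR adjusted p = 0.0170) were called lower too.

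Most periportal genes did not pass the test between groups. Of 10 members, Asl and Hsd17b6 were higher in KC_Epo and 8 did not pass the test, with 5 log2 fold changes above 0 and 5 below. Among all genes tested 16.9% were called higher and 32.3% in either direction, so few calls were not particular to this list. Their levels were low, and Cps1, Otc, Hal and Sds reached at most 3.21 CPM in any library. The urea cycle genes split. Cps1, the first enzyme of the cycle, had 3.21, 0.675 and 1.37 CPM in KC_Epo and 2.3, 2.84 and 1.92 CPM in KC_EV, so the groups overlapped (log2 fold change -0.42 ± 0.49 SE, edgeR adjusted p = 0.547). Otc, which makes citrulline, had 1.7, 0.322 and 0.41 CPM in KC_Epo and 0.693, 2.08 and 1.71 CPM in KC_EV (-0.86 ± 0.65 SE, edgeR adjusted p = 0.344). Its counts were 53, 10 and 9 in KC_Epo and 22, 65 and 58 in KC_EV, so counting error alone is large in KC_Epo 2 and 3. Ass1, which joins citrulline to aspartate, had 19.6, 5.92 and 13.0 CPM in KC_Epo and 16.8, 19 and 16.3 CPM in KC_EV (-0.43 ± 0.45 SE, edgeR adjusted p = 0.518). Asl, the next enzyme, had 30.0, 34.4 and 34.0 CPM in KC_Epo and 22.2, 26.7 and 27.3 CPM in KC_EV (0.37 ± 0.11 SE, edgeR adjusted p = 0.0192). Asl was the only one of the 4 without overlap, and its call was lost without KC_Epo 3 (adjusted p = 0.0751), without KC_EV 1 (adjusted p = 0.0572) and with library sizes as the only scaling (log2 fold change 0.21, adjusted p = 0.139).

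Genes of glucose synthesis and amino acid breakdown overlapped between groups too. Pck1, which opens gluconeogenesis, had 3.57, 1.16 and 1.37 CPM in KC_Epo and 3.15, 4.6 and 2.6 CPM in KC_EV (log2 fold change -0.75 ± 0.43 SE, edgeR adjusted p = 0.202). Hal, which begins histidine breakdown, had 3.05, 0.675 and 1.32 CPM in KC_Epo and 0.977, 2.59 and 2.74 CPM in KC_EV. Fbp1, a later enzyme of gluconeogenesis, had 5.17, 1.03 and 2.28 CPM in KC_Epo and 1.54, 2.56 and 2.54 CPM in KC_EV. KC_Epo 1 was the highest library in Hal and Fbp1 and KC_Epo 2 the lowest, as their KC_Epo libraries kept the order of Alb. Sds, which breaks down serine, had 3 to 25 counts per library, and no difference was detectable at this depth (0.42 ± 0.71 SE, edgeR adjusted p = 0.686). Without KC_Epo 1, Cps1 (-1.22, edgeR adjusted p = 0.0486), Otc (-2.02, edgeR adjusted p = 0.0231) and Pck1 (-1.45, edgeR adjusted p = 0.00825) were called lower.

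The 2 hydroxysteroid dehydrogenases on the periportal list went the other way. Hsd17b6, an enzyme of steroid and retinol metabolism, had 10.2, 1.99 and 4.87 CPM in KC_Epo and 0.158, 0.32 and 0.236 CPM in KC_EV. Its counts were 318, 62 and 107 in KC_Epo and 5, 10 and 8 in KC_EV. This rise of 4.56 ± 0.67 on the log2 scale (SE, edgeR adjusted p = 0.00139) was the largest among the members, and the call held in all 17 alternatives tried, between 3.83 and 4.98. Hsd17b13, an enzyme of lipid droplets, had 21.2, 5.28 and 10.0 CPM in KC_Epo and 3.44, 3.26 and 4.07 CPM in KC_EV, without overlap but above the threshold (1.76 ± 0.54 SE, edgeR adjusted p = 0.0623). It was called without KC_Epo 1 (adjusted p = 0.0076) or KC_Epo 2 (adjusted p = 0.000238), with a non-robust fit (0.0129) and with DESeq2 (1.3e-05).

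**Figure D2:**
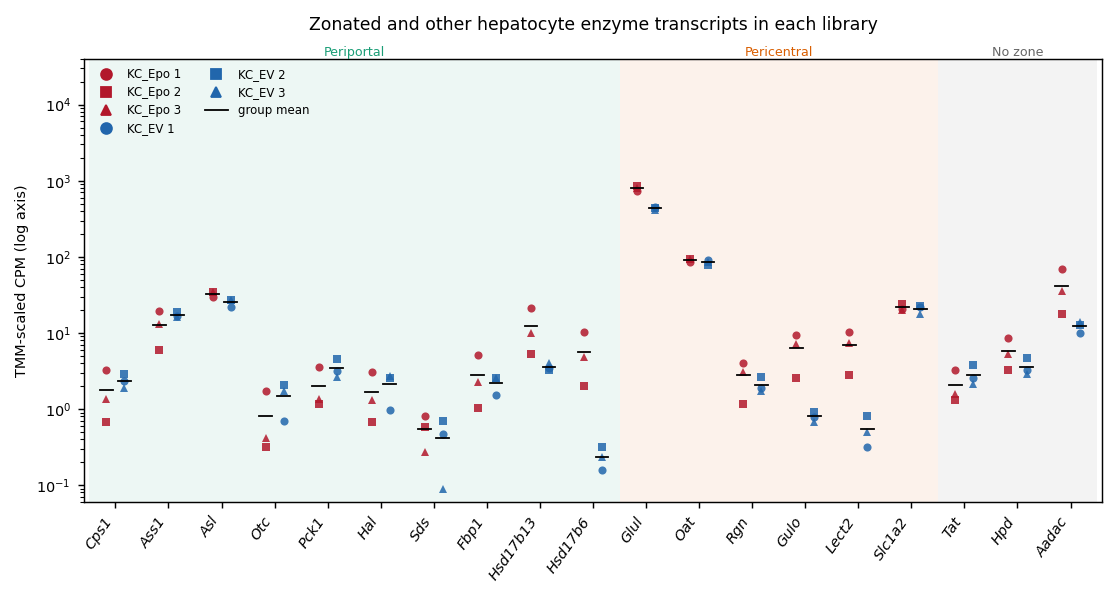
TMM-scaled CPM (log axis) of the 10 periportal, 6 pericentral and 3 unassigned genes in each KC_Epo and KC_EV library, one point per library. Groups lie apart for Asl, Hsd17b13 and Hsd17b6, for Glul, Gulo and Lect2 and for Aadac, and overlap for the other 12 genes. Of all genes tested, 48.3% lie apart in either direction.

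Set against Alb, 7 periportal genes were lower in KC_Epo, 1 was higher and 2 did not pass the test. Lower calls were the background here, since 91.3% of all genes tested were lower relative to Alb and only 0.274% higher. The median ratio to Alb in KC_Epo was 0.215 of the KC_EV level over the periportal genes, against 0.901 over the plasma proteins and a fitted 0.278 over all genes tested. The periportal median thus lay near that of all genes, and the difference between it and the plasma proteins was not tested. Cps1 had 0.219, 0.169 and 0.159 counts per 1000 Alb counts in KC_Epo, against 1.31, 1.34 and 0.983 in KC_EV (log2 fold change -2.72 ± 0.69 SE, edgeR adjusted p = 0.000569). Ass1 had 1.34, 1.48 and 1.51 in KC_Epo against 9.6, 8.91 and 8.37 in KC_EV (-2.63 ± 0.64 SE, edgeR adjusted p = 0.000317). Pck1 had 0.243, 0.29 and 0.159 in KC_Epo against 1.8, 2.16 and 1.33 in KC_EV (-2.93 ± 0.67 SE, edgeR adjusted p = 0.000144). In each of these 3 genes the KC_Epo libraries lay closer together over Alb than in CPM, where KC_Epo 1 exceeded KC_Epo 2 by 3.08-fold or more. Otc had 0.116, 0.0805 and 0.0478 in KC_Epo against 0.396, 0.976 and 0.877 in KC_EV, and Hal had 0.208, 0.169 and 0.154 in KC_Epo against 0.558, 1.22 and 1.41 in KC_EV. Cps1, Ass1, Otc, Pck1 and Hal stayed called in all 10 alternatives of this fit. Fbp1 was lower as well (-1.94, edgeR adjusted p = 0.00671) but not without KC_Epo 3 (adjusted p = 0.0741). In these 6 genes and Hsd17b13 the groups did not overlap. Of all 10 periportal genes 8 lay lower over Alb in every KC_Epo library and 1 higher, against 93.7% and 0.534% of all genes.

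Asl differed in pattern from Cps1, Ass1, Otc, Pck1, Hal and Fbp1. It had 2.04, 8.6 and 3.96 counts per 1000 Alb counts in KC_Epo against 12.7, 12.5 and 14.0 in KC_EV, so its ratio followed the inverse of Alb across the KC_Epo libraries. Its lower call relative to Alb (-1.43 ± 0.61 SE, edgeR adjusted p = 0.0231) was lost without KC_Epo 3 and without any one KC_EV library. Hsd17b6 was the only periportal member higher relative to Alb, with 0.697, 0.499 and 0.568 in KC_Epo against 0.0899, 0.15 and 0.121 in KC_EV (2.28 ± 0.75 SE, edgeR adjusted p = 0.0057). That call missed the threshold without KC_Epo 3 (2.30, adjusted p = 0.0573) and without KC_EV 1 (2.11, adjusted p = 0.0503). Hsd17b13 had 1.44, 1.32 and 1.17 in KC_Epo against 1.96, 1.53 and 2.09 in KC_EV, close to the plasma proteins, and did not pass (-0.50 ± 0.61 SE, edgeR adjusted p = 0.417). Its log2 ratios had SDs of 0.15 in KC_Epo and 0.24 in KC_EV, so not passing does not show an unchanged ratio.

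**Figure D3:**
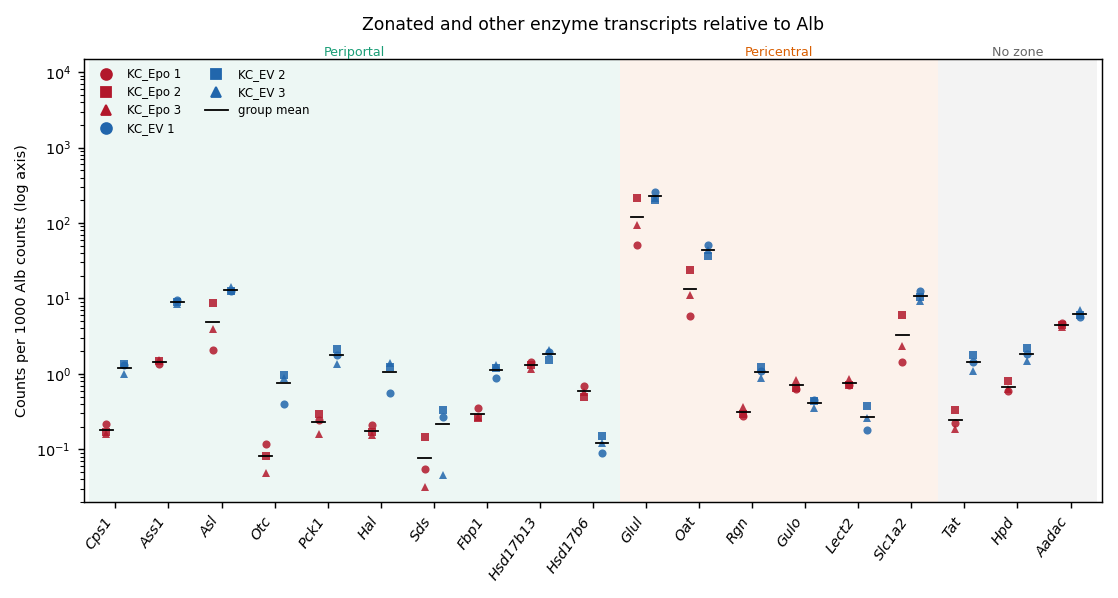
Counts per 1000 Alb counts of the same library (log axis) for the zonation genes, one point per library, KC_Epo and KC_EV. Hsd17b6, Gulo and Lect2 lie higher in all 3 KC_Epo libraries, Glul and Sds overlap, and the other members lie lower in all 3 KC_Epo libraries. Of all genes tested, 0.534% lie higher and 93.7% lower in this way.

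The pericentral genes fell into a pair of patterns. Glul, Oat and Slc1a2 had similar levels in all libraries of a group, while Gulo, Lect2 and Rgn were low and varied with Alb within KC_Epo. Glul, glutamine synthetase, which binds ammonia left over from the urea cycle, had 742, 854 and 797 CPM in KC_Epo and 449, 433 and 418 CPM in KC_EV. Its log2 fold change was 0.88 ± 0.08 (SE, edgeR adjusted p = 6.66e-06), with the smallest adjusted p of all members, and it was called in all 17 alternatives. Its KC_Epo libraries ran opposite to Alb, with KC_Epo 2 highest. Oat, ornithine aminotransferase, had 85.6, 94.9 and 93.8 CPM in KC_Epo and 90.7, 78.3 and 84.8 CPM in KC_EV, and did not pass (0.11 ± 0.08 SE, edgeR adjusted p = 0.295). Slc1a2, a glutamate transporter, had 20.8, 23.8 and 20.2 CPM in KC_Epo and 21.7, 22.4 and 17.9 CPM in KC_EV (0.07 ± 0.12 SE, edgeR adjusted p = 0.708). Per kilobase Glul was far above the other zonation genes, at a mean of 286 RPKM in KC_Epo and 155 RPKM in KC_EV, against 0.315 RPKM in KC_Epo and 0.424 RPKM in KC_EV for Cps1.

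Gulo and Lect2 rose, with fold changes above that of Alb. Gulo, which catalyses the last step of vitamin C synthesis, had 9.32, 2.57 and 7.11 CPM in KC_Epo and 0.788, 0.927 and 0.678 CPM in KC_EV (log2 fold change 2.98 ± 0.45 SE, edgeR adjusted p = 0.000814). Lect2, a secreted chemotactic protein, had 10.3, 2.83 and 7.38 CPM in KC_Epo and 0.315, 0.799 and 0.501 CPM in KC_EV (3.66 ± 0.54 SE, edgeR adjusted p = 0.00129). Neither overlapped between groups, and both were called in all 17 alternatives. Their counts were 80 to 290 for Gulo and 88 to 321 for Lect2 in KC_Epo, against 23 to 29 and 10 to 25 in KC_EV. Rgn, the calcium-binding regucalcin, had 4.05, 1.16 and 3.1 CPM in KC_Epo and 1.89, 2.62 and 1.71 CPM in KC_EV, and overlapped (0.41 ± 0.42 SE, edgeR adjusted p = 0.484).

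Relative to Alb the pericentral members separated in direction. Lect2 had 0.703, 0.709 and 0.86 counts per 1000 Alb counts in KC_Epo against 0.18, 0.375 and 0.257 in KC_EV (1.47 ± 0.69 SE, edgeR adjusted p = 0.0363). The call for Lect2 was lost without any one library except KC_Epo 1 or KC_Epo 2, with an adjusted p up to 0.155. Gulo had 0.635, 0.644 and 0.828 in KC_Epo against 0.45, 0.436 and 0.348 in KC_EV, without overlap, but did not pass (0.77 ± 0.67 SE, edgeR adjusted p = 0.255). The log2 ratios of Gulo had SDs of 0.21 in KC_Epo and 0.20 in KC_EV, so this standard error does not measure their spread. Only 0.534% of all genes lay higher over Alb in every KC_Epo library, which Gulo, Lect2 and Hsd17b6 did. Among further hepatocyte genes with counts in every library, 6 of 29 plasma protein, 3 of 9 pericentral and 0 of 12 periportal genes did so. Rgn had 0.276, 0.29 and 0.361 in KC_Epo against 1.08, 1.23 and 0.877 in KC_EV (-1.78 ± 0.66 SE, edgeR adjusted p = 0.0106), a ratio nearer to those of Cps1 and Ass1 than to Gulo. Oat (-1.70, edgeR adjusted p = 0.00945) and Slc1a2 (-1.72, edgeR adjusted p = 0.00849) were also lower over Alb, as 91.3% of all genes were, while their CPM overlapped between groups. The fitted changes of Rgn, Oat and Slc1a2 lay near the median of all genes, -1.85. These 3 calls were each lost without KC_Epo 3 and without KC_EV 1, with adjusted p between 0.0517 and 0.0884, and also without KC_EV 2 for Rgn (adjusted p = 0.0555) and without KC_EV 3 for Oat (adjusted p = 0.0513). Glul overlapped between groups over Alb, with 50.6, 214 and 92.9 in KC_Epo against 256, 203 and 214 in KC_EV. It did not pass (-0.92 ± 0.63 SE, edgeR adjusted p = 0.155), but without KC_Epo 2 it was called lower (-1.65, edgeR adjusted p = 5.19e-05). The median over the 6 pericentral genes was -1.47. Over Rgn, Gulo and Lect2 alone it was 0.77, which is the value of Gulo, between a lower Rgn and a higher Lect2.

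The 3 genes with no zone split between the same patterns. Tat, which begins tyrosine breakdown, had 3.24, 1.32 and 1.59 CPM in KC_Epo and 2.52, 3.77 and 2.12 CPM in KC_EV (log2 fold change -0.44 ± 0.39 SE, edgeR adjusted p = 0.411). Over Alb it resembled Cps1, with 0.221, 0.33 and 0.186 counts per 1000 Alb counts in KC_Epo against 1.44, 1.77 and 1.09 in KC_EV (-2.55 ± 0.67 SE, edgeR adjusted p = 0.00093). Hpd, the next enzyme of tyrosine breakdown, had 8.67, 3.22 and 5.33 CPM in KC_Epo and 3.21, 4.63 and 2.89 CPM in KC_EV, and was lower over Alb (-1.45 ± 0.63 SE, edgeR adjusted p = 0.0249). That call was lost without KC_Epo 3 and without any one KC_EV library, with adjusted p between 0.0632 and 0.112. Lower calls over Alb, as for Tat and Hpd, were made for 91.3% of all genes. Aadac, an esterase of the endoplasmic reticulum, had 69.0, 17.8 and 35.9 CPM in KC_Epo and 9.99, 12.9 and 13.8 CPM in KC_EV without overlap (1.74 ± 0.57 SE, edgeR adjusted p = 0.087). It was called higher with a non-robust fit (adjusted p = 0.0101), DESeq2 (0.0064) and limma-voom (0.0422), and without KC_Epo 2 (0.0088). Over Alb it lay near the plasma proteins (-0.50 ± 0.60 SE, edgeR adjusted p = 0.417). Its log2 ratios had SDs of 0.085 in KC_Epo and 0.16 in KC_EV, so not passing does not show an unchanged ratio.

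**Figure D4:**
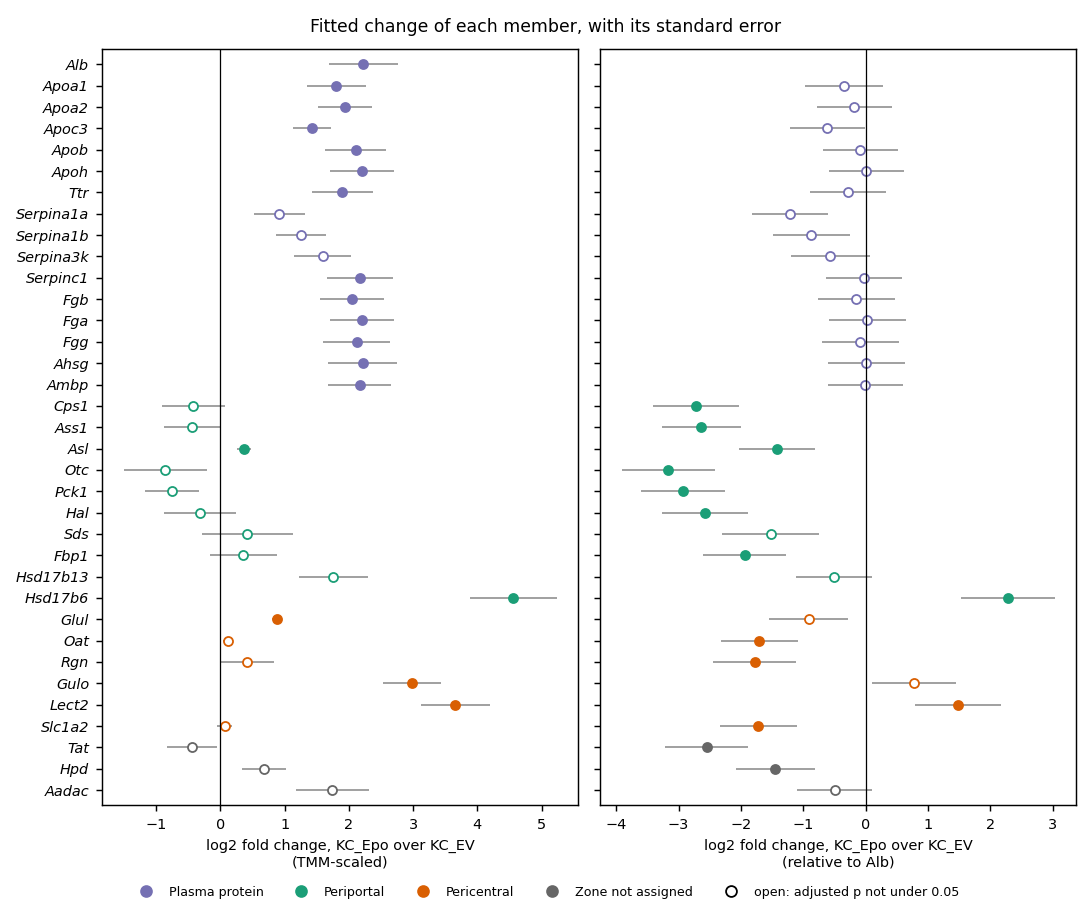
Log2 fold change (KC_Epo over KC_EV) with its standard error for each member, in CPM (left) and relative to Alb (right), grouped by role; open points did not pass an adjusted p of 0.05. Plasma protein genes lie between 0.92 and 2.22 in CPM and between -1.21 and 0.02 relative to Alb, while most periportal genes lie near 0 in CPM and below -1.4 relative to Alb.

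Within KC_Epo the members varied more than most genes. KC_Epo 1 exceeded KC_Epo 2 more than 2-fold for 30 of 35 members, against 9.08% of all genes tested, whose median ratio was 1.00. The median ratio was 3.19 over plasma protein genes, 4.27 over periportal genes and 2.20 over pericentral genes. The order KC_Epo 1, KC_Epo 3, KC_Epo 2 seen for Alb held for 29 of the other 34 members, against 26.7% of all other genes. It held for the other 15 plasma protein genes, 8 periportal, 3 pericentral and the 3 genes without a zone. Among KC_EV libraries 17 of the 34 had the order of Alb, against 21% of all other genes. These were mostly plasma protein genes: 13 of the other 15, against 3 of 10 periportal, 1 of 6 pericentral and 0 of the 3 genes without a zone. Periportal genes that did not pass the test between groups still varied within KC_Epo in the order of Alb: Cps1 had a KC_Epo 1 to KC_Epo 2 ratio of 4.76, Fbp1 of 5.02 and Otc of 5.29. The 5 members with ratios below 2 were Glul (0.869), Slc1a2 (0.871), Asl (0.872), Oat (0.902) and Sds (1.39).

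**Figure D5:**
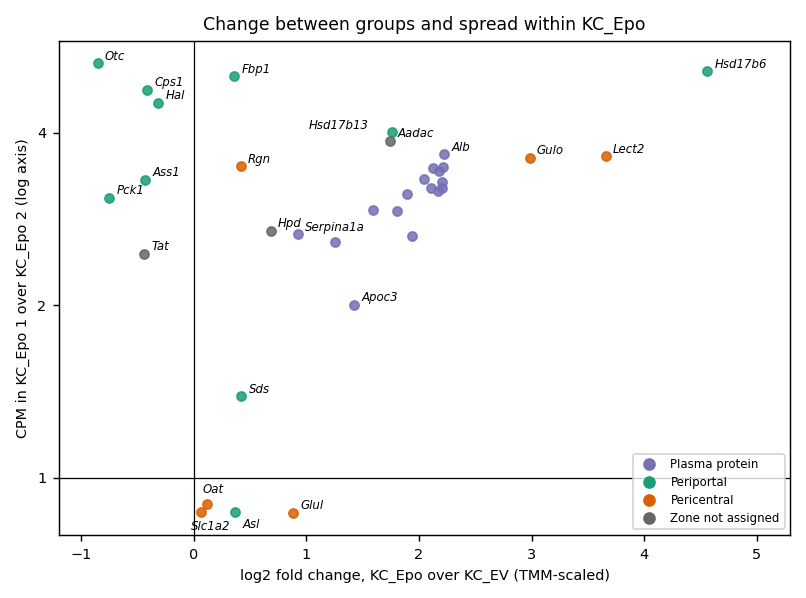
For each member, the ratio of CPM in KC_Epo 1 to that in KC_Epo 2 (vertical, log axis) against the log2 fold change between groups (KC_Epo over KC_EV, horizontal), coloured by role. Plasma protein genes lie together near Alb, most periportal genes share the high ratio within KC_Epo but lie near 0 between groups, and Glul, Oat, Asl and Slc1a2 lie between 0.869 and 0.902 on the within-group axis.

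Other hepatocyte genes were listed with earlier results of these data known, and over all genes tested 16.9% were higher and 15.4% lower in CPM. Of 29 tested further plasma protein genes, 18 were higher in KC_Epo and 0 lower, with a median log2 fold change of 2.02. Relative to Alb 0 were higher and 1 was lower, with a median of -0.17. The lower gene was Serpina1e (edgeR adjusted p = 0.00147), a further antitrypsin copy with 35.6% of its windows shared. It had 580, 215 and 353 CPM in KC_Epo against 399, 514 and 477 CPM in KC_EV. Of 13 further periportal genes 1 was higher and 2 were lower in CPM, and over Alb 11 were lower and 0 higher, with a median of -2.46, where 91.3% of all genes were lower and the median was -1.85. Arg1, the last enzyme of the urea cycle, was lower also in CPM, at 13.8 ± 3.88 in KC_Epo and 38.8 ± 4.97 in KC_EV (SD, n = 3 each, edgeR adjusted p = 0.00103); macrophages are known to express it too. Of 10 tested further pericentral genes 4 were higher and 1 was lower in CPM. Over Alb 1 was higher and 6 were lower, against 0.274% and 91.3% of all genes. The median of -1.84 lay near that of all genes, but the list was split. Of 9 genes with counts in every library, 3 lay higher over Alb in every KC_Epo library and 6 lay lower. Cyp2e1, a cytochrome P450 of the pericentral zone, had 235, 72.3 and 147 CPM in KC_Epo against 17, 20.2 and 19.3 CPM in KC_EV, a log2 fold change of 3.01, above that of Alb. That call in CPM was lost without KC_Epo 3 and without any one KC_EV library. Over Alb Cyp2e1 did not pass (0.82 ± 0.60 SE, edgeR adjusted p = 0.182). The 1 pericentral gene called higher over Alb was another, with 0, 0 and 6 counts in KC_EV 1, 2 and 3.

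Markers of several other cells differed between the groups beside the members, where 16.9% of all genes tested were higher and 15.4% lower. Kupffer cell markers were higher in KC_Epo for 6 of 8 genes and lower for 1, Adgre1. Sinusoidal endothelial markers were lower in 8 of 8 genes, summing to 1244 to 1987 CPM in KC_Epo and 3715 to 4491 CPM in KC_EV. Erythroid markers were higher in 7 of 7 genes, at 606 to 1108 CPM in KC_Epo and 33.3 to 43.1 CPM in KC_EV. Cholangiocyte markers were lower in 2 of 5 genes, Epcam and Krt19, and summed to 3.8 to 7.77 CPM in KC_Epo and 16.1 to 44.9 CPM in KC_EV, where Krt7 alone gave 35.6 CPM in KC_EV 1. Stellate cell markers were lower in 2 of 5 genes, Col1a1 and Col1a2, and summed to 20.6 to 48.5 CPM in KC_Epo and 81.9 to 92.4 CPM in KC_EV. Hepa1-6 is itself a liver cell line, and its listed markers, 4 of 6 of them among the rows, summed to 9.16 to 9.75 CPM in KC_Epo and 8.79 to 12.3 CPM in KC_EV. The 3 tested ones differed in direction. Epo, overexpressed in the tumour cells, had 29, 44 and 21 counts in KC_Epo against 0 counts in each KC_EV library (edgeR adjusted p = 0.000387). Igf2bp3, an RNA-binding protein of fetal and tumour cells, had 9, 23 and 19 counts in KC_Epo against 113, 76 and 71 in KC_EV (log2 fold change -2.11, edgeR adjusted p = 0.0041). Afp, a fetal plasma protein made by hepatomas and the highest of these markers, had 8.13, 7.59 and 7.11 CPM in KC_Epo and 5.26, 9.04 and 6.34 CPM in KC_EV (log2 fold change 0.15, edgeR adjusted p = 0.628). The part of these other cells in the values of the members was not tested.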

How the data were processed

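The authors deposited whole-number read counts per gene symbol for 6 libraries of sorted Kupffer cells, not normalized; the lowest row total was 5. Libraries were stranded and made from polyA RNA, per the labels' protocols. STAR 2.7.3a, HTSeq 0.11.2, Bowtie2 2.5.1, FastQC 0.11.8 and the build GRCm39 stand, with no role, in the submitters' processing notes. How reads shared by near-identical genes were counted is not given in the sources used here, so they may be lost or split.

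Tests were run with edgeR 4.0.16 in R 4.3.3 (TMM scaling, two-sided F test of a robust quasi-likelihood fit, filterByExpr defaults, Benjamini-Hochberg adjustment over 13120 genes, threshold 0.05, no block). For levels relative to Alb, the Alb counts of each library served as its library size over the other 13119 genes. Levels per kilobase used GENCODE M21 exon lengths. The fits were tested on simulated data. Alternatives were other scalings, filters, a non-robust fit, DESeq2 1.42.0, limma-voom (limma 3.58.1), a replicate block, other denominators than Alb and each library left out.

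The members and lists were chosen with earlier results of these data known, so counts over them describe and carry no test of their own. All 35 members are named, with at most the 3 most abundant genes of each other list, of which 1 is not reported here; Adgre1 was named after its value was seen, since it was the 1 Kupffer cell marker called lower. Pairs of libraries of a group differed by far more than sampling noise. An exact permutation test of 3 against 3 cannot go below p = 0.10 and was not used for calls. Counting intervals were not used; depth limits genes of a few counts. Protein sequences were not used here.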

Additional observations from a re-analysis of the deposited data

How the results depend on the processing

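Hsd17b6, Glul, Gulo and Lect2 in CPM, and Cps1, Ass1, Otc, Pck1, Hal and Tat relative to Alb, kept their direction and call under every alternative run for them; the plasma protein calls did not. With library sizes only, 1194 genes were higher and 3611 lower, against 2219 and 2015 with TMM, 1 periportal member was higher, and Oat (-0.046), Slc1a2 (-0.094) and Afp (-0.014) changed sign. Same-numbered libraries did not deviate together (correlations -0.148 to -0.0407), so the replicate block pairs by number only: with it, 6 members and 0 plasma protein genes were higher, and relative to Alb 1 member and 0 pericentral genes were higher. With other plasma proteins in place of Alb as the denominator, Apoa2 (0.099), Apob (0.20), Ttr (0.0072), Serpinc1 (0.27), Fgb (0.14), Fgg (0.21) and Ambp (0.29) turned positive, and with Apoa1 they were 0.16, 0.26, 0.066, 0.33, 0.20, 0.27 and 0.35, none called. The periportal median over Alb was -1.91 without Ass1, Asl, Fbp1 and Pck1, which were taken as expressed outside hepatocytes too. It was -1.92 with other plasma proteins as denominator and -1.76 as a ratio of summed counts. The pericentral median was 0.77 without Glul, Oat and Slc1a2, which is the value of Gulo, the middle one of the genes left. Sds has no value under the filter of 1 CPM. Serpina1b, Serpina3k, Hsd17b13 and Aadac, not called by edgeR, were called by DESeq2 and by a non-robust fit. The cause of these changes was not tested.

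With one library left out, genes called ranged from 2728 to 4557 (1477 to 2410 higher, 1251 to 2147 lower), members higher from 4 to 24 and lower from 0 to 3, plasma protein genes higher from 0 to 16, and periportal genes higher from 1 to 3 and lower from 0 to 3. Relative to Alb, members higher ranged from 0 to 2 and lower from 6 to 17, plasma protein genes lower from 0 to 3, periportal genes higher from 0 to 1, pericentral genes higher from 0 to 1 and lower from 0 to 4, and the pericentral median from -1.72 to -1.05. Signs turned in CPM for Fbp1 (-0.43 to 0.77), Hal (-1.09 to 0.081), Slc1a2 (-0.027 to 0.13), Sds (-0.066 to 1.00), Serpina1e (-0.70 to 0.019) and Afp (-0.011 to 0.39), and relative to Alb for Serpinc1 (-0.042 to 0.0043), Ambp (-0.058 to 0.049), Apoh (-0.018 to 0.061), Fga (-0.028 to 0.069) and Ahsg (-0.042 to 0.050).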
